A study of Mus musculus with 2 samples.

Results

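Horizontal cells are the subject here, taken as the nuclei that the authors annotated as Horizontal in single-nucleus RNA-seq of whole mouse retina. They numbered 127 of 14123 nuclei, 90 of 7357 in the Cre- library and 37 of 6766 in the Tet tcKO library. Both libraries came from C57 BL/6J mice at postnatal day 21, and the Cre- animals carried the genotype label WT. In Tet tcKO animals, floxed alleles of Tet1, Tet2 and Tet3, which encode enzymes that oxidize methylated cytosine, were deleted by a Cre-GFP transgene under Chx10 control. That transgene acts in retinal progenitor cells and is mosaic, and the study crossed Cre-positive animals to obtain 2 working copies of it. Nuclei of each genotype came from 2 pooled dissociations of several animals, and the deposited tables do not tell the pools apart. Each genotype was therefore 1 sample, no difference between genotypes was tested, and intervals at 95% cover counting error only. A comparison of an annotated class with the other nuclei is likewise a description, because the annotation rests on clusters of the same transcripts.

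Horizontal cells are inhibitory interneurons of the outer retina. Their processes contact the terminals of rods and cones, they are joined to each other by gap junctions, and they feed inhibition back onto photoreceptors and forward onto bipolar cells. They arise from progenitors through Foxn4, Ptf1a and Onecut factors, and Lhx1 acts in the newly formed cells as they settle into their layer in a regular mosaic. Adult horizontal cells of the mouse are of the axon-bearing type and hold the calcium-binding protein calbindin, encoded by Calb1. Cytosine methylation, on which the Tet enzymes act, falls mostly on C followed by G, written CpG.

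To show how far the horizontal marker genes differ in the sequence on which these enzymes act, 2 promoter windows are printed, the markers with the most and the fewest CpG. Each covers the 250 bases before the start of the canonical transcript in GRCm39 with GENCODE vM39, read on the gene's strand, in lower case with each CpG in capitals. The Lhx1 window lies at chr11:84416369-84416618 on the minus strand, and the Calb1 window at chr4:15880934-15881183 on the plus strand.
Lhx1: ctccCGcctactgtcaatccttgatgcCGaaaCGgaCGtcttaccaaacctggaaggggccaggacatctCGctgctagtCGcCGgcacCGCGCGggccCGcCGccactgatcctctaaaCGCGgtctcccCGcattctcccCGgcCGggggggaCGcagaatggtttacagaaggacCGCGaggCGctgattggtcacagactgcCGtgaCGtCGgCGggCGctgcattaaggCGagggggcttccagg
Calb1: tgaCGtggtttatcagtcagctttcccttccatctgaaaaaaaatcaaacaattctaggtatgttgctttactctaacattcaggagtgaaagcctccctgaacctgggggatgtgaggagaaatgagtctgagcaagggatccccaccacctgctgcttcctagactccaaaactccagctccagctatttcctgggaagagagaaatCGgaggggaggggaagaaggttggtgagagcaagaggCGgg

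The Lhx1 window held 27 CpG, more than 93.8% of the 21770 windows of protein-coding genes. The Calb1 window held 3, more than 24.2% of them. Onecut1 held 23, Onecut3 10 and Myzap 4, against a median of 8 and quartiles of 3 and 16 over all windows. The markers thus ran from CpG-rich to CpG-poor starts, and their transcript levels in the Tet tcKO library are given further on. The motifs ATTGAT, the core letters of Onecut binding sites, and TAATTA, those of LIM homeodomain sites, were searched on both strands. ATTGAT stood in 6.5% of all windows and TAATTA in 5.2%, and in 0 of the 5 marker windows. They stood likewise in 0 of the 15 windows of the leading genes described next that had one.

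The share of horizontal nuclei was lower in the Tet tcKO library. They made up 1.22% of Cre- nuclei (95% interval 0.985 to 1.50) and 0.547% of Tet tcKO nuclei (0.385 to 0.753). The photoreceptor annotation differed strongly between the libraries, so the share was also taken of the nuclei annotated neither rod nor cone. There it was 4.79% (3.87 to 5.86, of 1878) in Cre- and 1.05% (0.738 to 1.44, of 3535) in Tet tcKO. Among such nuclei with 1000 UMIs or more it was 4.82% and 1.05%. Shares are of the nuclei captured, and each class lowers the share of the rest as it grows. Nuclei with 3 of the 5 markers (Lhx1, Onecut1, Onecut3, Calb1 and Myzap), a class that depends on depth, made up 0.394% (0.264 to 0.566) and 0.414% (0.275 to 0.598) of the libraries, and the order of the shares did not hold under that definition. Of the nuclei neither rod nor cone they made up 1.54% and 0.792%.

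The markers set the annotated nuclei apart. In both libraries the horizontal nuclei formed cluster 18 of the authors, which held no other nuclei. With 5 markers in view, 28 of 90 Cre- and 25 of 37 Tet tcKO horizontal nuclei had at least 3, against 1 of 7267 and 3 of 6729 other nuclei. Depth moved these counts, and 7 Cre- nuclei had none of the 5. After each nucleus was thinned to 500 UMIs, at least 1 marker was found in 58.9% (48.0 to 69.2) of Cre- and 59.5% (42.1 to 75.2) of Tet tcKO horizontal nuclei, and with another random seed in 58.9% and 70.3%. The same share was 3.72% and 3.84% in amacrine cells and 5.11% and 3.84% in retinal ganglion cells (RGCs). Without thinning it was 92.2% and 100% in horizontal nuclei, 9.68% and 11.4% in amacrine cells, and 17.6% and 19.5% in RGCs. The libraries shared 1 cell barcode in all, and 0 among horizontal nuclei.

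Horizontal nuclei held few genes for their depth and much Malat1. They held 158316 UMIs in Cre- and 111025 in Tet tcKO, with medians per nucleus of 1502 (635 to 5229) and 2492 (971 to 6244), against medians of 1104 and 1830 in the other nuclei, most of them rods in Cre-. Among Cre- classes, cones (3736), bipolar cells (1968) and RGCs (1601) were deeper. At 500 UMIs a horizontal nucleus had a median of 358.5 genes in Cre- and 381 in Tet tcKO, against 417 and 429 in the other nuclei. Malat1, a nuclear non-coding RNA, took 13.5% (13.3 to 13.6) of horizontal UMIs in Cre- and 8.53% (8.36 to 8.69) in Tet tcKO, against 3.35% and 2.57% in the other nuclei. Its UMIs are part of the 500 at which genes were counted. The number of genes without Malat1 was not taken, so the 2 traits are not separate. The 13 mitochondrial genes took 2.41% and 0.917% of horizontal UMIs and 5.51% and 1.77% of the others. Amacrine cells (2.64% and 1.07%) and RGCs (2.02% and 0.912%) had mitochondrial shares close to those of horizontal nuclei.

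Some Tet tcKO horizontal nuclei had lower shares of the leading genes than any Cre- horizontal nucleus. The 20 genes that lead the horizontal profile, most of them described below, made up 0.792% to 3.20% of the UMIs of a Cre- horizontal nucleus, with a median of 1.68%. In Tet tcKO the range was 0.210% to 2.97% with a median of 1.18%, and 10 of the 37 nuclei lay below the lowest Cre- nucleus. Those 10 held 26.8% of the Tet tcKO horizontal UMIs, at a median of 2463.5 UMIs per nucleus, near that of the other 27 (2538). Malat1 made up a median of 4.77% of their UMIs, against 9.67% in the other 27. At least 3 of the 5 markers were found in 4 of the 10 and in 21 of the 27. These 10 are a cut and no separate cluster, since the values ran on without a gap, from 0.778% in the highest of the 10 to 0.811% in the lowest of the 27. Among nuclei with another annotation, 2 of 7267 in Cre- and 46 of 6729 in Tet tcKO reached the lowest horizontal share of their library. The highest of them stood at 1.10% and 5.47%, the latter above every horizontal nucleus. Col27a1 is among the 20 genes, so its level bears on the cut. It gave 746 of 158316 horizontal UMIs in Cre- and 162 of 111025 in Tet tcKO. Shares without Col27a1 were not taken, so its part in the cut was not tested. Tpm3 and Pcsk6, also among the 20, were low in the 10 as well. The 27 held 73.2% of the Tet tcKO horizontal UMIs, but 273 of 299 for Tpm3 and 148 of 165 for Pcsk6. The markers Lhx1, Onecut1, Onecut3 and Myzap are among the 20 too. Since the 10 were picked by the summed share of the 20, low values of its members are in part set by the cut. They do not tell whether Col27a1 alone set it.

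Marker lists of other classes were higher on one side of this cut or the other. The cone list summed to 3398 CPM (UMIs per 1000000, with a 95% interval of 2768 to 4129) in the 10 nuclei and to 1341 (1101 to 1617) in the 27. The rod list stood at 1918 (1453 to 2485) and 1095 (879 to 1347). The amacrine list gave 4 UMIs and 0, and the RGC list 9 UMIs (303 CPM, 138 to 575) and 7 (86.1, 34.6 to 177), with overlapping intervals. Bipolar markers stood at 1279 and 1033 CPM and Müller markers at 606 and 332, also with overlapping intervals. Microglial markers stood at 0 in the 10 and 111 CPM in the 27 and vascular markers at 33.6 and 123, again with overlapping intervals. Horizontal markers stood at 1178 (820 to 1638) and 2214 (1902 to 2562). The part of the 10 nuclei in the results was measured by leaving them out, and values without them are given for the genes that differ most between the libraries and for the lowest genes. Since they were picked by low levels of the leading genes, a rise of those genes without them follows from the choice.

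**Figure D1:**
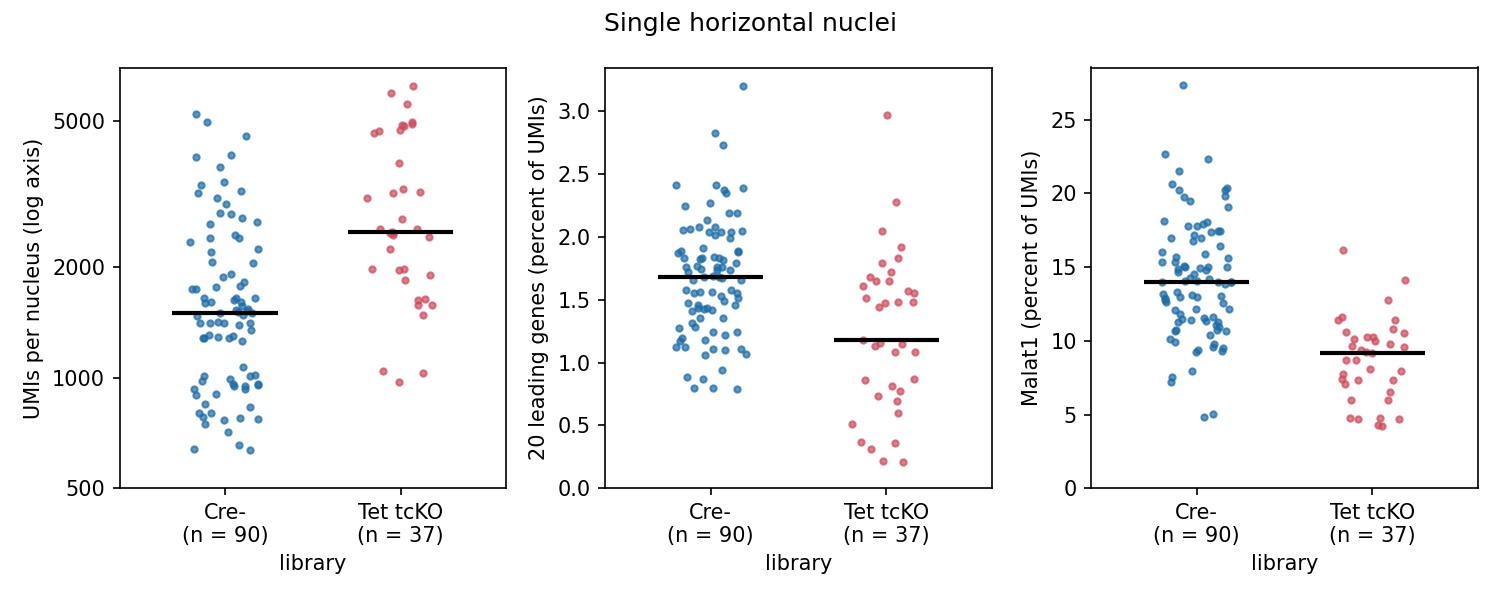
Single horizontal nuclei of the 2 libraries (points, 90 Cre- and 37 Tet tcKO), with UMIs per nucleus on a log axis, the percent of UMIs in the 20 leading genes, and the percent in Malat1. Black lines are medians. Tet tcKO nuclei were deeper (median 2492 against 1502 UMIs), held less Malat1 (9.16% against 14.0%) and reached lower leading-gene shares (0.210% against 0.792%).

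Levels were compared over 2115 genes with at least 30 observed or expected UMIs, where the expected number is that of the other nuclei in the same library. Of these, 112 (5.30%) stood at least 4-fold higher in horizontal nuclei and 42 (1.99%) at least 4-fold lower, with a median log2 of observed over expected of -0.23. Of the 112, 109 were higher in horizontal nuclei than in any other annotated class with 50 or more nuclei, in both libraries. The 112 were picked from the same UMIs, so this count is in part set by that choice. It was not taken over all 2115 genes. The count of higher genes lay between 77 and 163 over the alternatives tried. The count of lower genes was less steady, at 84 without the 10 nuclei of low share, 21 with Malat1 left out of the totals, and 0 when each gene was counted once per nucleus.

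The leading genes began with the transcription factors of the lineage. Lhx1 gave 38 UMIs in Cre- and 36 in Tet tcKO horizontal nuclei, levels of 240 and 324 CPM, against 2.91 and 1.21 CPM in the other nuclei, a log2 of 6.96 (6.61 to 7.29). Onecut3 stood at 234 and 225 CPM (log2 5.85) and Onecut1 at 411 and 450 CPM (5.09). Among other classes Onecut1 was highest in RGCs, at 41.5 and 49.7 CPM. Lhx1os, a non-coding RNA at 94.7 and 207 CPM (5.50), lies across Lhx1 on the opposite strand of chromosome 11. Reads of Lhx1 and Lhx1os cannot be told apart without strand, and the sources used here do not say whether counting used it.

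Several leading genes encode proteins of the cell surface, the matrix and secretion. Col27a1, a fibrillar collagen, reached 4712 CPM in Cre- and 1459 in Tet tcKO, against 113 and 42.8 in the other nuclei (log2 5.33). Pcsk6, a convertase that cleaves secreted precursors, stood at 1484 and 1486 CPM (5.64). Lrrc4, a postsynaptic adhesion protein that binds netrin-G, stood at 1194 and 1081 CPM (5.14). Col27a1 was the most abundant of the 20 in Cre- and ranked behind Tpm3 and Pcsk6 in Tet tcKO.

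Others act at the cytoskeleton, in ion handling or in metabolism. Tpm3, a tropomyosin of actin filaments, stood at 3512 and 2693 CPM (log2 4.94), and Wipf1, a partner of the actin regulator WASP, at 373 and 495 CPM (4.57). Myzap, a junction protein best known from heart muscle, stood at 272 and 342 CPM (6.10). Wnk4, a kinase that controls ion cotransporters, stood at 739 and 775 CPM (5.23). Tecrl, a reductase-like protein, stood at 183 and 306 CPM (5.00), the D-aspartate oxidase Ddo at 101 and 144 CPM (4.70), and Fam124a at 480 and 630 CPM (4.86). Tpm3 was the highest of these genes in both libraries.

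The 4 further leading genes given here are non-coding. Gm45460 stood at 455 and 135 CPM (log2 5.78) and Gm45459 at 916 and 513 CPM (4.96). Both lie on the minus strand of chromosome 8, 11689 bases apart. 9030625G05Rik stood at 164 and 189 CPM (5.72) and Mir217hg at 310 and 180 CPM (5.30). Wipf1, with 4.57, was the last gene inside the list of 20, and Slc4a3, with 4.55, the first outside it. Calb1, the classical marker, ranked lower, at 726 and 594 CPM and a log2 of 4.27 (4.05 to 4.48), with 66.7 CPM in Cre- RGCs and 51.7 in Tet tcKO amacrine cells.

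**Figure D2:**
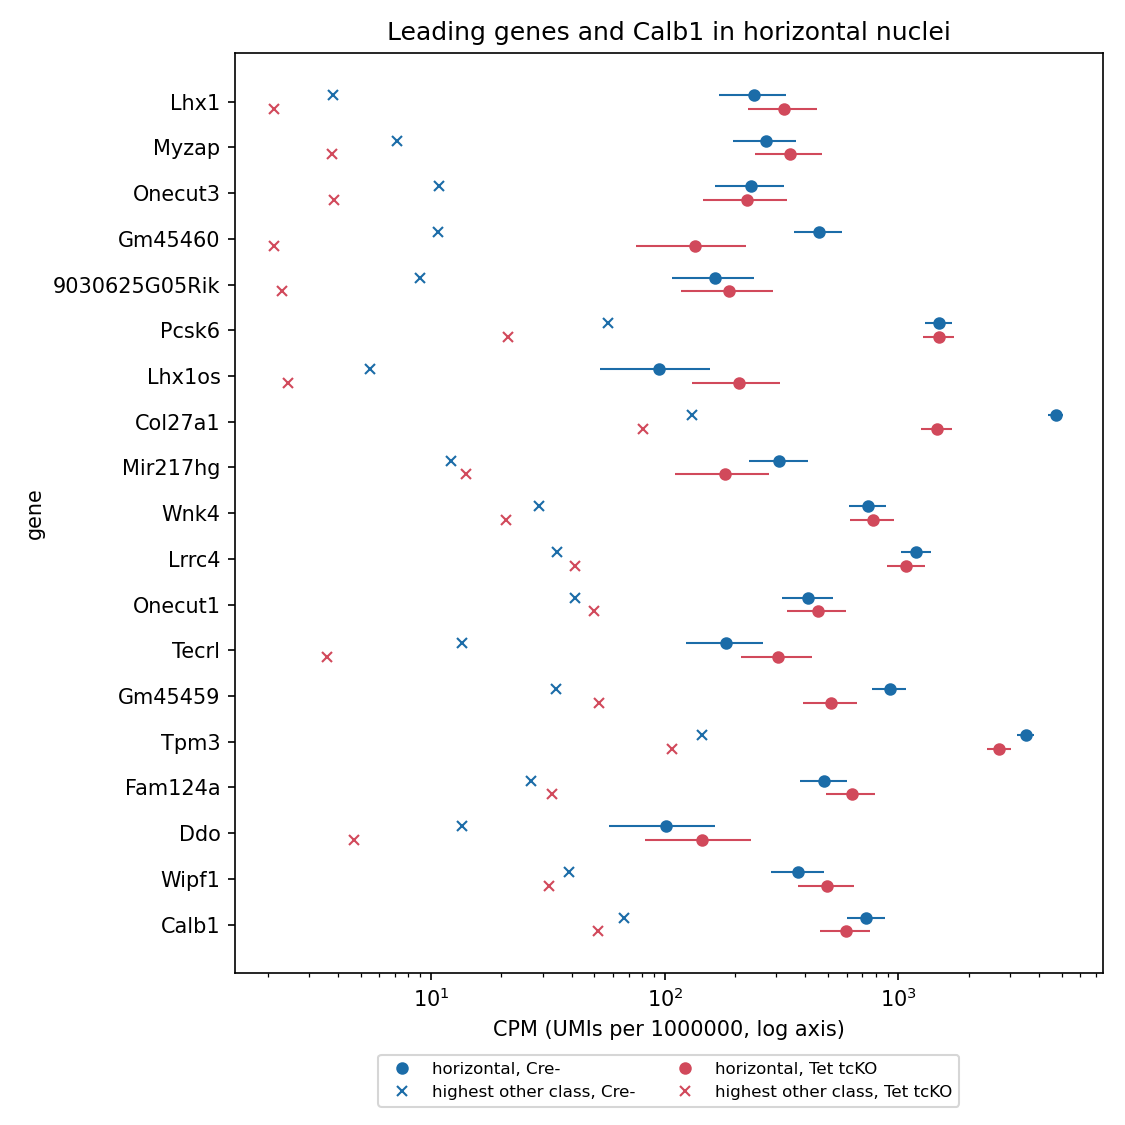
Level of 18 of the 20 leading genes and of Calb1 in CPM on a log axis, with 95% counting intervals as lines. Dots are horizontal nuclei and crosses the highest other class with 50 or more nuclei, in Cre- (blue) and Tet tcKO (red). Each dot lies to the right of the cross of its library, and the red dots of Col27a1 (1459 against 4712) and Gm45460 (135 against 455) lie well to the left of the blue ones.

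Levels were also set against those of amacrine cells and RGCs, each taken alone. Of the 112 higher genes, 90 were at least 4-fold above amacrine cells, 89 above RGCs and 79 above both, and the 20 leading genes were above both. The choice of the 112 favours such counts, which were not taken over all genes compared. Lhx1 gave 0 and 5 UMIs in amacrine cells and 1 and 0 in RGCs, too few for a fold, against 38 and 36 in horizontal nuclei. On the log2 scale Onecut1 was 5.79 above amacrine cells but 3.25 above RGCs, and Onecut2 4.11 and 3.17. Tfap2b, which amacrine cells also use, was 0.56 above amacrine cells and 4.13 above RGCs. Syt2, a calcium sensor of fast vesicle release, was 5.90 above amacrine cells and 1.86 above RGCs.

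Across the 2115 genes, the horizontal profile was most like that of amacrine cells, with a Spearman correlation of 0.567 in Cre- and 0.587 in Tet tcKO. RGCs gave 0.502 and 0.554, bipolar cells 0.538 and 0.529, and Müller glia 0.512 and 0.456. The horizontal profiles of the 2 libraries correlated at 0.802. These are correlations across genes, which are not independent, and profiles of the same library share its depth and background.

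Lineage factors were the list that stood highest. Lhx1, Onecut1 and Onecut3 in it are also markers of the class, so its height is in part given by that choice. Of 16 genes, 10 had enough UMIs, 5 were at least 4-fold higher and 1 lower, with a median log2 of 2.15 against -0.23 over all genes. Besides Lhx1, Onecut1 and Onecut3, these were Onecut2 at 448 and 459 CPM (4.10) and Prox1 at 688 and 1000 CPM (2.50). Tfap2b stood at 821 and 865 CPM (1.80), Meis1 at 398 and 441 (0.95) and Pax6 at 493 and 721 (0.18). Meis2, high in amacrine cells (627 and 850 CPM), stood at 63.2 and 81.1 CPM (-2.23). Foxn4 and Ptf1a, which act in progenitors, had 0 UMIs in horizontal nuclei, as had Sall1, and a count of 0 allows up to 3 UMIs.

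Transmitter handling gave few UMIs. Horizontal cells of the mouse use GABA in development, and the 7 genes for its synthesis, vesicular loading and uptake were low at this age and depth. Gad1, a GABA-making enzyme, gave 4 UMIs in each library (25.3 and 36.0 CPM), against 174 and 164 CPM in amacrine cells. Its Tet tcKO count was 0 without the 10 nuclei of low share. Gad2 gave 1 and 2 UMIs and the vesicular transporter gene Slc32a1 3 and 1, the last also from the 10.

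Most genes for receptors of glutamate, the photoreceptor transmitter, were below the other nuclei. Of 17 ionotropic receptor genes, 13 were compared, 9 were lower and 4 higher, 0 passed 4-fold in either direction, and the median log2 was -0.89. Summed, the 17 stood at 4592 and 4864 CPM in horizontal nuclei, below amacrine cells (6832 and 9590), RGCs (5293 and 6507) and bipolar cells (5139 and 6169), and against 4268 and 5898 in the other nuclei together. Gria4 was the most abundant of those named here at 1409 and 1567 CPM (0.80), followed by Gria2 at 1030 and 838 CPM (-0.02) and Gria3 at 480 and 621 CPM (0.83). Grik4, a kainate receptor subunit, was highest relative to other nuclei at 69.5 and 261 CPM (1.68), and Gria1 stood at 75.8 and 81.1 CPM (-1.61). GABA and glycine receptor genes were lower too, with 6 of 17 compared, a median of -1.11, and Gabrg3 at least 4-fold lower at 69.5 and 54.0 CPM (-2.20).

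The gap junction list was near the floor. None of its 8 genes reached the minimum and 4 had 0 UMIs. Gja10, the connexin of horizontal cell dendrites, gave 5 UMIs in Cre- and 3 in Tet tcKO, levels of 31.6 and 27.0 CPM. It stood at 0.176 and 0.0607 CPM in the other nuclei. The counts are few, but the gene lay above the highest other class (0.566 CPM in bipolar and 0.427 in amacrine nuclei) in both libraries.

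Genes for pH and bicarbonate, which enter models of horizontal feedback, held an abundant member. Slc4a3, a chloride and bicarbonate exchanger, stood at 4921 CPM in Cre- and 3143 in Tet tcKO, against 231 and 104 in the other nuclei (log2 4.55, 4.47 to 4.64). It was found in 127 of 127 horizontal nuclei. The list otherwise stood below the other nuclei, with 5 of 9 genes compared, a median of -0.79, and Slc4a7 at 114 and 45.0 CPM (-1.58).

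Among 16 voltage-gated calcium channel genes, 12 were compared, 1 was at least 4-fold higher and 1 lower, with a median of -0.44. Cacna2d3, an auxiliary subunit, stood at 1314 and 1918 CPM (log2 2.69). Cacna1h, a low-voltage-activated channel, stood at 771 and 658 CPM (1.94). Cacna1c stood at 50.5 and 72.1 CPM (-2.15). For potassium channels, 9 of 17 were compared with a median of -0.90. Kcnq5 was higher at 177 and 180 CPM (2.05), and Kcnd2, an A-type channel, was the lowest gene by the naming rule, at 37.9 and 108 CPM against 282 and 474 in the other nuclei (-2.43). Of the 13 sodium and HCN channel genes 4 were compared, 0 passed 4-fold and the median was -0.47.

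Cytoskeletal genes included a second group of high members. Of 15, 10 were compared, 3 were at least 4-fold higher and 0 lower, with a median of 0.38. With Tpm3, these were the septin Septin4 at 1434 and 1819 CPM (log2 4.01) and vimentin, Vim, at 461 and 315 CPM (3.93). The spectrin adaptor Ank2 stood at 2666 and 2900 CPM (1.41). Nefl, a neurofilament gene, stood at 75.8 and 54.0 CPM (-1.08).

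Of 20 genes for mosaic spacing, adhesion and guidance, 19 were compared, 3 were at least 4-fold higher and 1 lower, with a median of -0.29. Megf11, a surface receptor by which horizontal and starburst amacrine cells keep their spacing, stood at 998 and 1288 CPM (log2 3.63), against 380 and 272 CPM in amacrine cells. Its relative Megf10 gave 11 and 17 UMIs (69.5 and 153 CPM) and was below the minimum, with Müller glia at 126 and 214 CPM. Slit1, a secreted guidance cue, stood at 385 and 414 CPM (3.23), Plxna4, a semaphorin receptor, at 234 and 441 CPM (1.91) and Tenm1 at 568 and 549 CPM (1.51). Lrrc4c, a relative of Lrrc4, was low at 303 and 387 CPM against 1087 and 1769 in the other nuclei (-2.02).

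In the release machinery, 10 of 20 genes were compared, 2 were at least 4-fold higher and 1 lower, with a median of -0.50. Syt2 stood at 341 and 351 CPM (log2 4.03) and Snap25, a core fusion protein, at 2097 and 4179 CPM (2.21). Syt1, the relative of Syt2 used by most brain neurons, stood at 1592 and 1567 CPM (-0.69), and Cplx4, a complexin of ribbon synapses, at 25.3 and 45.0 CPM (-2.25). The value of Syt1 changed sign, to 0.02, when each gene was counted once per nucleus. Neurotrophin receptor genes had 2 of 7 compared, Ntrk2 at 265 and 315 CPM (0.83) and Ntrk3 at 12.6 and 54.0 CPM (-2.33). Of 8 calcium-binding protein genes 3 were compared, with Calb1 the 1 past 4-fold and a median of -0.22, and Calb2 (calretinin) gave 3 and 2 UMIs. The 6 dopamine and adrenergic receptor genes had too few UMIs to compare.

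**Figure D3:**
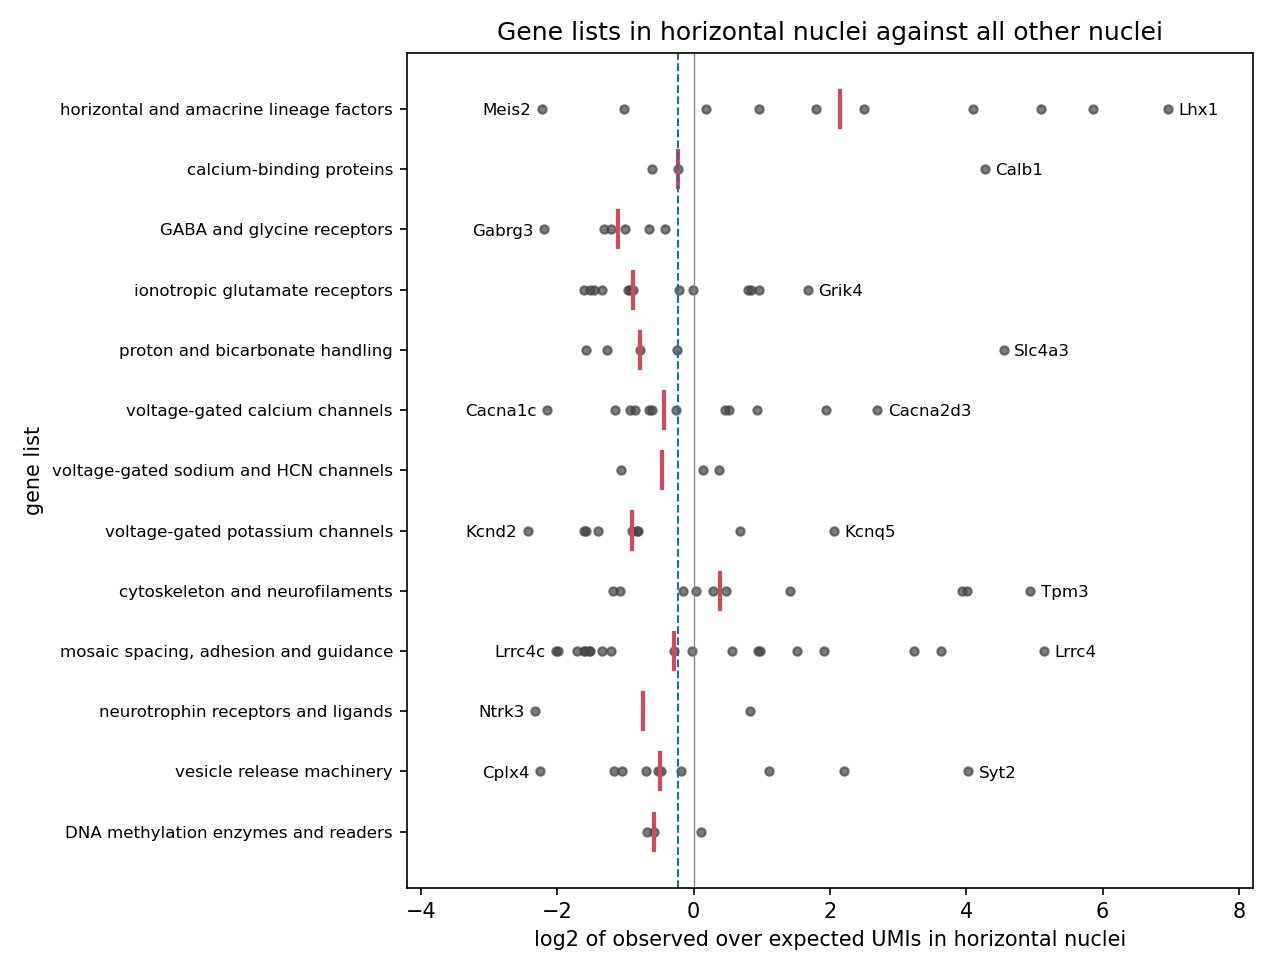
Log2 of observed over expected UMIs in horizontal nuclei for the genes of 13 lists that had enough UMIs (dots), with the median of each whole list, of which not every gene is drawn, in red. The dashed blue line is the median of the 2115 genes compared (-0.23) and the grey line marks no difference. Lineage factors, which include the markers Lhx1, Onecut1 and Onecut3, have the highest median (2.15). The medians of most other lists lie at or left of the dashed line, and that of cytoskeletal genes (0.38) lies to its right. Several lists have 1 to 3 genes at least 4-fold higher. Receptors of GABA and glycine, ionotropic glutamate receptors, sodium and HCN channels, neurotrophin genes and DNA methylation genes have none.

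The lowest genes were highest in other neurons or in photoreceptors. After Kcnd2 came Pex5l at 189 and 126 CPM (log2 -2.36), the striatal and amacrine phosphodiesterase gene Pde10a at 114 and 90.1 CPM (-2.32), and Galntl6 at 126 and 342 CPM (-2.26). Fgf14 (-2.25), Edil3 (-2.23), Meis2, the RGC-high factor Ebf1 (-2.21), Tafa3 and Gabrg3 (both -2.20) completed the lowest 10 among genes with at least 50 expected UMIs. Without the 10 nuclei of low share, Tet tcKO levels were lower for Galntl6 (172 CPM), Pex5l (61.5), Pde10a (36.9), Fgf14 (98.4), Gabrg3 (24.6), Edil3 and Tafa3 (12.3 each), and Ebf1 gave 0 UMIs. Lrrc4c stood at 246 CPM and Cacna1c at 24.6 without them. In 22 of the 42 lower genes, horizontal nuclei had the lowest level of the annotated classes with 50 or more nuclei in both libraries. The 42 were picked from the same UMIs, so this count too is in part set by that choice.

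Markers of most other classes were lower than in the other nuclei, with microglial and pigment epithelium markers in Tet tcKO as exceptions. The 9 rod genes summed to 2786 CPM in Cre- and 1315 in Tet tcKO horizontal nuclei, against 9300 and 4081 in the other nuclei, and the 9 cone genes to 594 and 1891, against 1278 and 4551. Bipolar markers summed to 771 and 1099 against 2587 and 1615, Müller markers to 594 and 405 against 1013 and 804, and RGC markers to 63.2 and 144 against 281 and 305. Amacrine markers summed to 31.6 and 36.0 against 175 and 154, with 5 of 7 and 4 of 7 at 0. Microglial markers stood at 44.2 and 81.1 CPM against 48.4 and 61.7, vascular markers at 189 and 99.1 against 250 and 169, and the 3 astrocyte markers at 0. Pigment epithelium markers gave 0 and 2 UMIs, the latter 18 CPM against 13.1. The photoreceptor genes followed the photoreceptor makeup of their library, with rod transcripts higher in Cre- and cone transcripts higher in Tet tcKO.

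To compare horizontal transcripts between the Tet tcKO and Cre- libraries, 1536 genes with at least 30 UMIs over both libraries were compared within horizontal nuclei. In Tet tcKO, 78 (5.08%) were at least 2-fold higher and 72 (4.69%) at least 2-fold lower, with a median log2 ratio of 0.08, against 0.05 for the same genes in the other nuclei. The split depended on scaling. It was 63 and 88 with TMM factors (median -0.01), 45 and 112 with median-of-ratios factors (-0.11) and 63 and 88 with Malat1 left out of the totals (-0.0045). Without the 10 nuclei of low share it was 77 and 100 of 1318 genes. Each ratio below moves with the scaling by the same amount as the median.

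The 5 horizontal markers did not differ between the libraries beyond counting error. The ratio was 0.43 (-0.27 to 1.13) for Lhx1, 0.13 (-0.43 to 0.69) for Onecut1, -0.05 (-0.85 to 0.72) for Onecut3, -0.29 (-0.75 to 0.16) for Calb1 and 0.33 (-0.34 to 1.00) for Myzap. The intervals of these 5 include 0 and do not show that the levels were equal. CpG-rich Lhx1 and CpG-poor Calb1 are both among these 5. A link between promoter CpG and the ratios was not tested, and the CpG counts are of sequence, not of methylation. Onecut2 gave 0.03 (-0.51 to 0.57) and Prox1 0.54 (0.14 to 0.93). Of the 20 leading genes, 1 was at least 2-fold higher and 2 lower, 6 intervals left out 0, and the median was 0.10. The gene at least 2-fold higher was Lhx1os, at 15 and 23 UMIs and a ratio of 1.13 (0.13 to 2.17). Pcsk6 lay at 0.00 (-0.29 to 0.30).

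Col27a1 was the abundant exception. It gave 746 UMIs in Cre- and 162 in Tet tcKO, or 4712 and 1459 CPM, and its log2 ratio was -1.69 (-1.95 to -1.44). It was found in 89 of 90 and 30 of 37 nuclei, and after thinning to 500 UMIs in 88.9% (80.5 to 94.5) and 40.5% (24.8 to 57.9). Pcsk6, for comparison, was found in 46.7% and 40.5% after thinning. Without the 10 nuclei of low share the ratio of Col27a1 was -1.44 (-1.71 to -1.18). In the other nuclei, where the gene was low, the ratio was -1.40 (-1.53 to -1.26), so the direction was not particular to horizontal nuclei. Gm45460 fell from 72 to 15 UMIs, a ratio of -1.75 (-2.66 to -0.93), and its neighbour Gm45459 from 145 to 57 UMIs, a ratio of -0.84 (-1.30 to -0.38). In the other nuclei, too, both were lower in Tet tcKO, at -2.83 (-3.58 to -2.14) and -1.03 (-1.27 to -0.79). Amacrine cells taken alone gave 1.41 (0.53 to 2.45) for Gm45459. Without the 10 nuclei the ratios in horizontal nuclei were -1.40 for Gm45460 and -0.69 for Gm45459.

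The 8 highest ratios by the naming rule joined a cone gene with genes of neurons. Cngb3, the beta subunit of the cone transduction channel, gave 14 and 106 UMIs (3.43, 2.62 to 4.35), with 3.05 in the other nuclei and 2.88 without the 10 nuclei. Pcdh15, a protocadherin, gave 61 and 166 UMIs (1.96, 1.52 to 2.40), with 1.16 in the other nuclei and 1.49 without the 10 nuclei. Dgkd gave 1.93 and Ccdc136 1.72, with 1.13 and 1.88 in the other nuclei. These 4 were higher in the other nuclei as well. The summed cone markers given above stood at 594 CPM in Cre- and 1891 in Tet tcKO horizontal nuclei. Cngb3 is itself a member of that list, at 88.4 and 955 CPM, so the sum is not independent of it. The part of photoreceptor RNA in these 4 values was not tested.

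Csmd1 and Grik4 were higher in the other nuclei too, and Lmo1 and Tet3 were not, differences between populations that were not tested. Csmd1, a large membrane protein of neurons, gave 104 and 261 UMIs (657 and 2351 CPM) and a ratio of 1.84 (1.51 to 2.18), against 0.83 (0.77 to 0.89) in the other nuclei, 1.06 in amacrine cells and 2.13 without the 10 nuclei. Grik4 gave 11 and 29 UMIs and 1.91 (0.87 to 3.06), against 1.02 in the other nuclei, 1.35 in amacrine cells and 2.31 without the 10. Lmo1, a LIM-only cofactor of transcription, gave 15 and 37 UMIs, found in 10 of 90 and 18 of 37 nuclei, and a ratio of 1.81 (0.91 to 2.79), against -0.46 (-0.85 to -0.07) in the other nuclei. Its ratio without the 10 nuclei was 2.14 (1.23 to 3.12).

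Tet3 is a targeted gene. It gave 8 UMIs in 8 Cre- nuclei and 24 UMIs in 18 Tet tcKO nuclei, levels of 50.5 and 216 CPM and a ratio of 2.10 (0.89 to 3.46), against 182 and 173 CPM in the other nuclei. Tet2 gave 8 and 12 UMIs and Tet1 5 and 9, and neither reached the minimum of 30. The counts take in the whole gene with no split by exon, and they check neither the deletion nor the label of a nucleus. Among 9 genes of DNA methylation, 3 were compared with other nuclei, 0 passed 4-fold, and the median was -0.59. Dnmt3a, a methyltransferase, stood at 505 and 513 CPM in horizontal nuclei, a ratio between the libraries of 0.02 (-0.49 to 0.53).

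The 8 lowest ratios were led by rod genes. Slc24a1, the rod exchanger, gave 32 and 1 UMIs, and Cnga1, the alpha subunit of the rod channel, gave 42 and 3, ratios of -4.49 (-9.84 to -1.91) and -3.30 (-5.63 to -1.65). Endov (-2.91), Myo3a (-2.30), Rabgef1 (-2.02) and the mitochondrial gene mt-Nd5 (-1.90) were at least 2-fold lower in the other nuclei as well, at -2.23, -1.63, -1.66 and -1.85. Rod markers, a list that includes Cnga1, stood at 2786 and 1315 CPM in horizontal nuclei, and their part was not tested. Of 11 mitochondrial genes 10 were at least 2-fold lower in Tet tcKO, with a median of -1.45.

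Arhgap15 differed from that group. This gene, an inhibitor of the GTPase Rac, gave 131 UMIs in 45 Cre- nuclei and 24 UMIs in 14 Tet tcKO nuclei, levels of 827 and 216 CPM and a ratio of -1.94 (-2.63 to -1.30). The ratio in the other nuclei was -0.74 (-0.95 to -0.53), and without the 10 nuclei that of horizontal nuclei was -1.98. Amacrine cells taken alone gave -0.19 (-0.86 to 0.52). RGCs, where the gene stood at 21.9 and 5.16 CPM, gave -2.09 (-3.25 to -1.03), so a fall of this size was not particular to horizontal nuclei.

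The abundant functional genes moved less. Slc4a3 gave 779 and 349 UMIs, a ratio of -0.65 (-0.83 to -0.46), against -1.16 (-1.25 to -1.07) in the other nuclei. Snap25 gave 332 and 464 UMIs and 0.99 (0.79 to 1.20), against 0.52 (0.48 to 0.56) in the other nuclei, and 1.31 without the 10 nuclei. Tpm3 gave -0.38 (-0.59 to -0.18), and -0.06 (-0.28 to 0.15) without the 10 nuclei. Cacna2d3 gave 0.55 (0.26 to 0.83), Septin4 0.34 (0.06 to 0.62), Megf11 0.37 (0.03 to 0.70) and Gria4 0.15 (-0.14 to 0.45).

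Of the 78 genes at least 2-fold higher in horizontal nuclei, 9 (11.5%) were also at least 2-fold higher in the other nuclei, and of the 26 such genes of the other nuclei, out of the 1536, these were 34.6%. Of the 72 lower genes, 31 (43.1%) were so in the other nuclei too, which is 50.8% of the 61 lower there. The sign was the same in the other nuclei for 63 of the 78 and 59 of the 72. Intervals left out 0 in 74 of the 78 and in 62 of the 72. These genes were picked by the size of the same ratio, so the interval counts are in part set by that choice. For neither signs nor intervals was the share over all 1536 genes taken. Ratios in horizontal nuclei rest on far fewer UMIs than those of the other nuclei, so their spread is wider from counting alone. The other nuclei also differ in class makeup between the libraries, and their ratios hold makeup and level together.

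**Figure D4:**
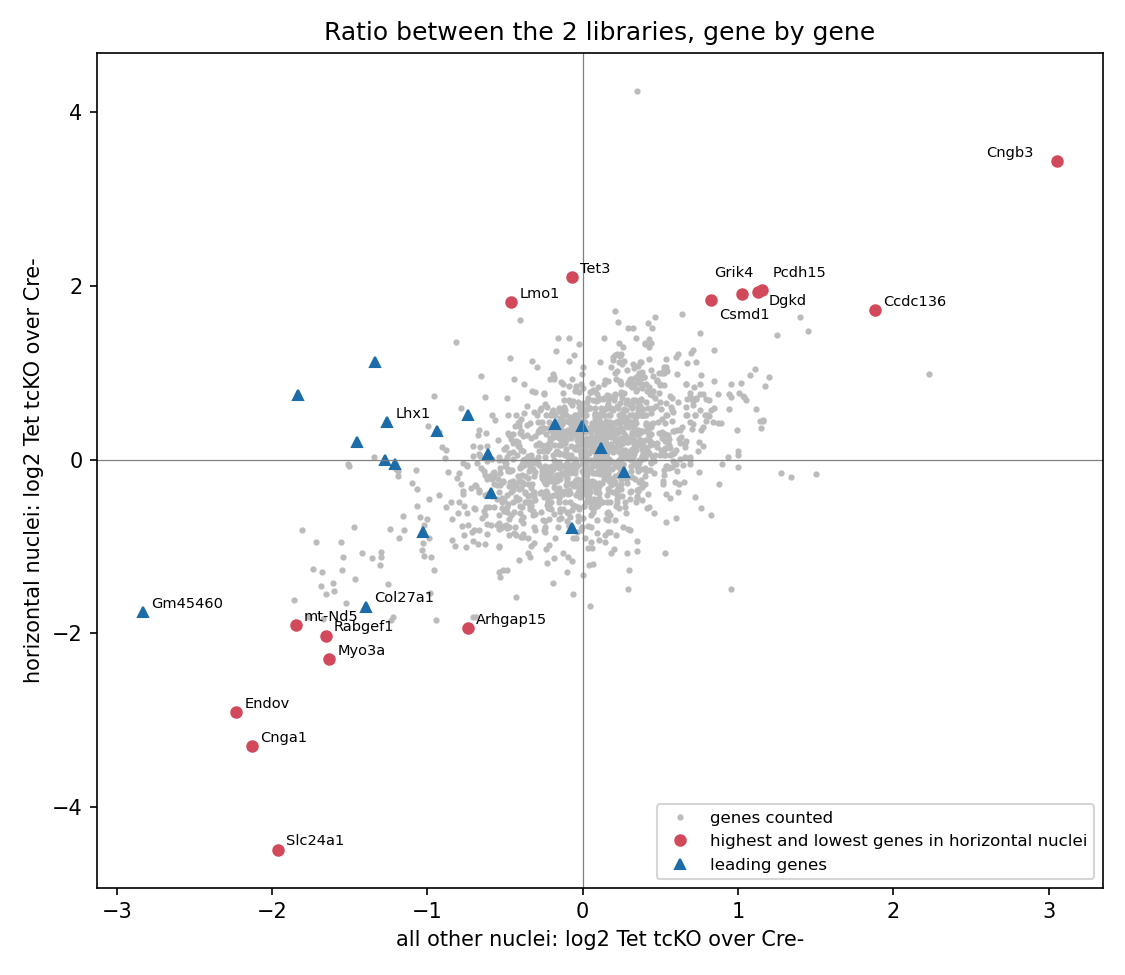
Log2 ratio of Tet tcKO over Cre- for 1532 of the 1536 genes compared, in horizontal nuclei (vertical axis) against all other nuclei (horizontal axis). Red dots are genes of the 8 highest and 8 lowest of the naming rule, of which 15 are shown, blue triangles 18 of the leading genes, and grey dots the rest, among them Myh13 at the top, of whose UMIs 53% came from a single nucleus. Cngb3 and the rod genes lie far from 0 on both axes, while Tet3 and Lmo1 lie high on the vertical axis at -0.07 and -0.46 on the horizontal one.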

How the data were processed

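The deposited matrices hold UMI counts per gene and nucleus, which the authors made with pipseeker 3.3.0 against GRCm39, cleared of ambient RNA with CellBender and filtered by depth and mitochondrial percent. That percent, per nucleus, is the authors' value, as are cluster and cell type. The deposited size factor (a ratio) and the deposited per-gene signal by genotype were not used. No doublet caller was run. Leaving out the deepest 10% of nuclei was tried in its place, but this cannot find mixed nuclei of usual depth. The 10 nuclei of low share had a median of 2463.5 UMIs, against 2538 in the other 27. Library totals were 11510585 UMIs in Cre- and 16590747 in Tet tcKO.

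Members, gene lists and rules were chosen with earlier results of these data known. UMIs were summed over nuclei, and levels are CPM, per 1000000 UMIs of the class. Expected UMIs are those at the level of the other nuclei of the same library, and 54 rows with repeated symbols were left out. Intervals are exact Poisson, exact conditional or Clopper-Pearson, and a count of 0 was set to 3 counts in a ratio. Named genes were the 5 markers, members of 16 role lists, and the 20 highest levels (30 UMIs or more, higher in each library, in 10 or more nuclei). To these came the 10 lowest, and the 8 highest and 8 lowest ratios between libraries, where no nucleus held 25% or more of the gene's UMIs. Alternatives were the scaling (TMM of edgeR 4.0.16 and median of ratios of DESeq2 1.42.0, as factors only), the minimum, the weighting of classes, each gene counted once per nucleus, and leaving out nuclei. The totals without Malat1 and the removal of the 10 nuclei of low share were chosen after seeing the data. Of 32227 gene IDs, 98.3% matched GENCODE vM39. Results of some genes of these lists and rules are not reported here. The steps were tested on simulated data. Python 3.11.15, numpy 2.4.6, scipy 1.17.1 and pandas 2.3.3 were used.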

Additional observations from a re-analysis of the deposited data

Results flagged for a closer look

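Lmo1 moved in opposite directions in horizontal nuclei and in the other nuclei. Its log2 ratio of Tet tcKO over Cre- was 1.81 in horizontal nuclei, from 94.7 to 333 CPM, and -0.46 in the other nuclei, from 9.60 to 6.98 CPM. Both intervals left out 0, and with 1 library per genotype the difference was not tested. Of the other nuclei, 5214 of 7267 were rods in Cre- and 3225 of 6729 were cones in Tet tcKO. Class makeup and level cannot be told apart in their ratio. In amacrine cells the gene stood at 3.58 and 3.42 CPM, a ratio of -0.07 (-2.39 to 3.20). In RGCs it stood at 4.88 and 8.91 CPM, a ratio of 0.87 (-0.51 to 2.48), so neither class taken alone showed a fall beyond counting error.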

How the results depend on the processing

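Of 1384 values computed under alternatives, 1235 stayed within the limits set, 148 moved beyond them and 1 changed sign, the level of Syt1 (0.017 with genes counted once per nucleus). Over summaries alone, 36 of 56 stayed. The Cre- share of 1.22% became 1.51% among nuclei with 1000 UMIs or more and 0.394% with 3 of 5 markers, where the share of nuclei neither rod nor cone became 1.54%. The share of nuclei with a marker was 92.2% and 100% without thinning. The 42 genes at least 4-fold lower became 68 with other classes weighted equally, 0 with genes counted once per nucleus, 93 leaving out the nucleus highest for each gene, 20 without the deepest 10% of nuclei, 88 without the 25% of nuclei richest in photoreceptor markers, 84 without the 10 nuclei of low share, 21 without Malat1 in the totals and 205 of 6122 genes at a minimum of 10 UMIs. Between libraries, the 78 higher genes became 45 under median of ratios, 12 counted once per nucleus, 50 without the highest nucleus and 552 of 4771 at a minimum of 10. The 72 lower genes became 112, 29 and 461 under the first, second and last of these. The cause of these moves was not tested, but counting once per nucleus compresses abundant genes by construction. No paired analysis was possible because each genotype had 1 library. No replicate could be left out for the same reason. Depth limits the rest: 37 Tet tcKO nuclei hold 111025 UMIs, so ratios of genes near the minimum of 30 UMIs have wide intervals.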

Other observations

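The genes of this paragraph were chosen after their values were seen, from the 112 at least 4-fold higher in horizontal nuclei, and levels are CPM in Cre- and Tet tcKO. Actin and septin genes beyond the lists were among them. Septin7 stood at 790 and 603 (log2 of observed over expected 3.00) and Septin8 at 777 and 856 (3.01), beside Septin4. Nebl, a nebulin-like actin protein, stood at 4560 and 4143 (3.95), Tmod1, which caps actin filaments, at 158 and 153 (3.51), Lima1 at 556 and 676 (3.31), and the myosin genes Myo6 and Myo16 at 897 and 1198 (2.86) and 745 and 757 (3.40). Tpm3-rs7, at 398 and 162 (4.06), is a near copy of Tpm3, so reads of the pair may be shared out unevenly.

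Further genes of the 112 were likewise chosen after their values were seen. Thsd7b stood at 2760 and 3224 CPM (4.19), Tnr, a tenascin, at 2040 and 2369 (3.49), Thbs3, a thrombospondin, at 253 and 207 (4.13), Lama3, a laminin chain, at 177 and 180 (3.90), and Hs6st3, which sulfates heparan sulfate, at 7460 and 8106 (4.04). Slc4a5, a bicarbonate cotransporter, stood at 670 and 612 CPM (3.88) and Slc12a2, a chloride importer, at 145 and 333 (2.52). Dock4, which activates Rac, stood at 941 and 2306 CPM (4.37), and Utrn, a relative of dystrophin, at 2293 and 1027 (4.07).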
